A study of Homo sapiens with 8 samples.

Results

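Gene expression with SAHA was compared with that in untreated adipose-derived stem cells (ADSCs), pairing the arrays by their biological replicate number, across all 18508 genes of the deposited table. The comparison used 6 of the 8 arrays, which were the 3 SAHA and the 3 untreated arrays, and left out the 2 EtOH arrays. The cells were ASC52telo, a human line of adipose-derived mesenchymal stem cells immortalised with hTERT, so that all replicates were cultures of 1 line. SAHA (also called Vorinostat) is a hydroxamic acid that inhibits zinc-dependent histone deacetylases (HDACs). After 24 h without serum, cells were kept for 72 h with 1000 nM SAHA or untreated, and both groups then spent 24 h in fresh medium. SAHA was dissolved in EtOH and untreated cells received none, so an effect of the vehicle and an effect of SAHA cannot be told apart in this comparison. The labels of replicates 1, 2 and 3 also carry the numbers 6, 10 and 16 after a p, and do not spell out its meaning.

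Histone deacetylases remove acetyl groups from the tails of histones and from many other proteins. Their inhibitors raise histone acetylation, change the transcription of many genes in both directions and are known in many cell types for raising CDKN1A, whose product p21 halts the cell cycle. ADSCs are fibroblast-like cells that secrete extracellular matrix and can be driven in culture toward fat, bone and cartilage.

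Each gene had 1 log2 value per array, between -0.83 and 9.96, with array medians from 0.26 to 0.32. These values serve to compare a gene between arrays. Levels of different genes, as used below for the markers and for genes with the highest or lowest mean level, give only a rough order. Over all 8 arrays, with EtOH included, each replicate number had the same mean in all 18508 genes. This leaves the paired differences as they are but removes the difference in mean level between replicate numbers. The untreated and SAHA arrays alone need not have equal means, as replicates 1 and 3 also hold an EtOH array. In replicate 2, which had no EtOH array, the SAHA and untreated values of a gene therefore mirror each other around its mean. Levels given below for replicate 2 beside those of replicates 1 and 3 depend on this, while the paired differences do not. All 8 markers of mesenchymal stem cells that were checked (ENG, NT5E, THY1, CD44, ITGB1, PDGFRA, PDGFRB and ANPEP) were well above the array medians, with mean values from 4.11 for PDGFRB to 8.27 for ITGB1. Markers of leukocytes (highest mean 0.41), epithelial cells (0.35), neurons (0.08) and adipocytes (0.10) lay near the medians, and of 5 endothelial markers VWF and TEK stood highest, at 0.80 and 0.84. The longer lists of these cell types held members with higher values, such as KRT8 of the epithelial list (mean 2.69 untreated and 2.38 with SAHA) and PLIN2 of the adipogenic list (3.01 and 2.33). SYT11 of the neuronal list had untreated values of 3.22, 2.59 and 3.20 and SAHA values of 3.93, 4.27 and 3.81, and CD36 of the adipogenic list had 2.95, 3.01 and 3.03 and then 3.86, 3.70 and 4.43. No marker of any of these cell types was called different between SAHA and untreated cells, as was the case for all but 10 of the 18508 genes.

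In a limma fit blocked by replicate number, SAHA raised 7 genes (0.0378% of all genes tested) and lowered 3 (0.0162%), where a call needed an adjusted p under 0.05 and a change of 1.5-fold or more. The 7 were TGM2, CDKN1A, MXRA5, INSYN2B, ADGRL2, ITM2C and THSD4. The 3 were ACAN, MFAP4 and BGN, which all encode extracellular matrix proteins. All 10 belonged to the 6170 genes with the highest mean level.

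Upstream sequence was matched by symbol in RefSeq (GRCh38.p14) for 7 of these 10 genes. The 250 bases before the RefSeq gene start are shown 5′ to 3′ along the gene for 3 genes that rose and for 2 that fell, because acetylated histones are found at active promoters and because these stretches differ in their content of GC boxes. GC boxes (GGGCGG, or CCGCCC on the other strand) are known as binding sites of Sp1 factors and are given in capitals.
CDKN1A: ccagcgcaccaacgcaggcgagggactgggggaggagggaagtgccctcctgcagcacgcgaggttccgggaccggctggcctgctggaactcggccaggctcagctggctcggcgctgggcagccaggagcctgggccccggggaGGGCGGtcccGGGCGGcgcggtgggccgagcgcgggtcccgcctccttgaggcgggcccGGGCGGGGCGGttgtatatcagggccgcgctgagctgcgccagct
MXRA5: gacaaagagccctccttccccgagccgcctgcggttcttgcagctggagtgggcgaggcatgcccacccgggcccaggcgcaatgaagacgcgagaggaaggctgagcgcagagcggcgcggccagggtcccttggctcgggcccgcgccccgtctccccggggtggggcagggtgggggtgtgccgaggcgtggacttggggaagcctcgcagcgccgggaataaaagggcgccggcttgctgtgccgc
THSD4: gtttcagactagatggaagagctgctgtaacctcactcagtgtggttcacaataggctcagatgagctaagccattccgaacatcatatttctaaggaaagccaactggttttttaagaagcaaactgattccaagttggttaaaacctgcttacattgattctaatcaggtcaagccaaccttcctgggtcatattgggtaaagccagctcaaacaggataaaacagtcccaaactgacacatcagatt
ACAN: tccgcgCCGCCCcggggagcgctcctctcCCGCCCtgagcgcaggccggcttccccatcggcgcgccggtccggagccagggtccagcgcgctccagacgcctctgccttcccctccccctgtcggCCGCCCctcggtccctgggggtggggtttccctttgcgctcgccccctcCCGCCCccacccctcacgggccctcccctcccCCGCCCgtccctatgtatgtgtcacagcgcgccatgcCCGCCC
BGN: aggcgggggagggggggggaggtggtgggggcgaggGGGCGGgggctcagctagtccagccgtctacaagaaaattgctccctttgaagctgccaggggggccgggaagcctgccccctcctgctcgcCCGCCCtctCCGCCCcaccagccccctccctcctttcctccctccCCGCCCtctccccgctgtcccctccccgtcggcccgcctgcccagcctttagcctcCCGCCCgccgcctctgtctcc
These stretches lie at chr6:36678464-36678713 on the plus strand for CDKN1A, chrX:3346653-3346902 on the minus strand for MXRA5, chr15:71096644-71096893 on the plus strand for THSD4, chr15:88803186-88803435 on the plus strand for ACAN and chrX:153494730-153494979 on the plus strand for BGN. CDKN1A had 4 GC boxes, some of them overlapping, ACAN had 6 and BGN had 5, while MXRA5 and THSD4 had 0. Of the other called genes with a sequence, ITM2C had 1 and ADGRL2 had 0, so that 4 of 7 (57.1%) held a GC box, a share close to that of all genes. G and C made up 76.4% of the bases for CDKN1A and 41.6% for THSD4. Among all measured genes with a sequence, 57% of 14415 held a GC box in this window, against 26 of 48 (54.2%) genes that were higher by 1.5-fold in all 3 pairs and 17 of 23 (73.9%) genes that were lower. The share among the genes with the highest mean level was 68.4%. TATAAA, on either strand, was found in 8.96% of all measured genes, in 6 of the 48 and in 2 of the 23, and CCAAT, on either strand, in 34.6%, in 18 and in 7. A match of these letters is a description and does not show that a factor binds.

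TGM2 encodes transglutaminase 2, which crosslinks proteins inside and outside the cell. Its log2 value was 1.87, 0.97 and 1.80 in untreated replicates 1, 2 and 3, and 4.52, 4.53 and 5.33 in the SAHA arrays of the same numbers. Every SAHA array lay above every untreated array, and the mean difference of 3.24 (standard error 0.21, adjusted p = 0.0017 in limma) was the largest of all genes called. CDKN1A read 2.80, 2.72 and 2.68 in the untreated arrays and 5.01, 4.65 and 5.40 with SAHA. The untreated spread of 0.06 (SD, n = 3) is that left after the replicate numbers were given equal means. It does not show how alike the untreated cultures were. The CDKN1A differences of 2.20, 1.94 and 2.72 gave a mean of 2.29 (standard error 0.19, adjusted p = 0.0054 in limma), which is a 4.88-fold rise.

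Among the matrix genes, MXRA5, a secreted protein linked to matrix remodelling, had untreated values of 3.89, 3.38 and 3.75 and SAHA values of 5.57, 5.54 and 5.48. The SAHA arrays of MXRA5 differed from each other by less than 0.1 after the same step, and the log2 fold change was 1.86 (adjusted p = 0.0089 in limma). THSD4, which encodes a thrombospondin-repeat protein of fibrillin microfibrils, went from 1.61, 1.64 and 1.49 to 3.28, 2.94 and 3.19, a log2 fold change of 1.56 (adjusted p = 0.022 in limma). MFAP4, another microfibril protein, had the opposite direction, from 4.59, 5.28 and 4.86 in untreated cells to 2.85, 3.08 and 2.82 with SAHA. MFAP4 fell by 1.75, 2.20 and 2.04 in the 3 pairs, with an adjusted p of 0.0054 in limma.

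ACAN encodes aggrecan, the large proteoglycan of cartilage. Its untreated values were 2.84, 3.75 and 2.50, and the SAHA values were 0.45, 0.30 and 0.98, beside array medians from 0.26 to 0.32. The ACAN difference was -3.45 in replicate 2 against -1.52 in replicate 3, the widest range between pairs among the 10 genes (log2 fold change -2.45, standard error 0.31, adjusted p = 0.040 in limma). BGN, which encodes the small leucine-rich proteoglycan biglycan, was well expressed in both groups, at 6.50, 6.99 and 6.47 untreated and 5.28, 5.25 and 5.10 with SAHA. BGN fell by 1.23, 1.74 and 1.37 (adjusted p = 0.036 in limma).

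The other genes called higher encode membrane or less characterised proteins. ADGRL2, a latrophilin of the adhesion G protein-coupled receptors, had untreated values of 1.52, 0.96 and 1.01 and SAHA values of 2.74, 2.49 and 3.12. ITM2C, a member of the BRI family of membrane proteins, went from 2.31, 1.87 and 1.92 to 3.49, 3.68 and 3.65. INSYN2B went from 1.27, 1.38 and 1.03 to 3.22, 2.74 and 2.69. The log2 fold changes were 1.62, 1.58 and 1.66, with adjusted p of 0.040, 0.031 and 0.021 in limma. In all 10 genes the SAHA and untreated arrays did not overlap, which the equal means of the replicate numbers favour and which also held for 1640 genes above (8.86%) and 2421 genes below (13.1%) among all 18508. ADGRL2, ACAN and BGN lay just inside the p threshold, and SLC12A8, PAPPA and ENPP2 just outside it with adjusted p of 0.066, 0.066 and 0.074.

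TGM2, CDKN1A and MFAP4 were called in all 10 alternative analyses with moderated variances. ACAN, BGN, INSYN2B and THSD4 were lost without replicate 1, where the adjusted p was 0.05 for INSYN2B and 0.053 for THSD4. ACAN was also lost when each array was centred on its median, and all but TGM2, CDKN1A and MFAP4 were lost when the 1.5-fold threshold was placed inside the test.

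**Figure D1:**
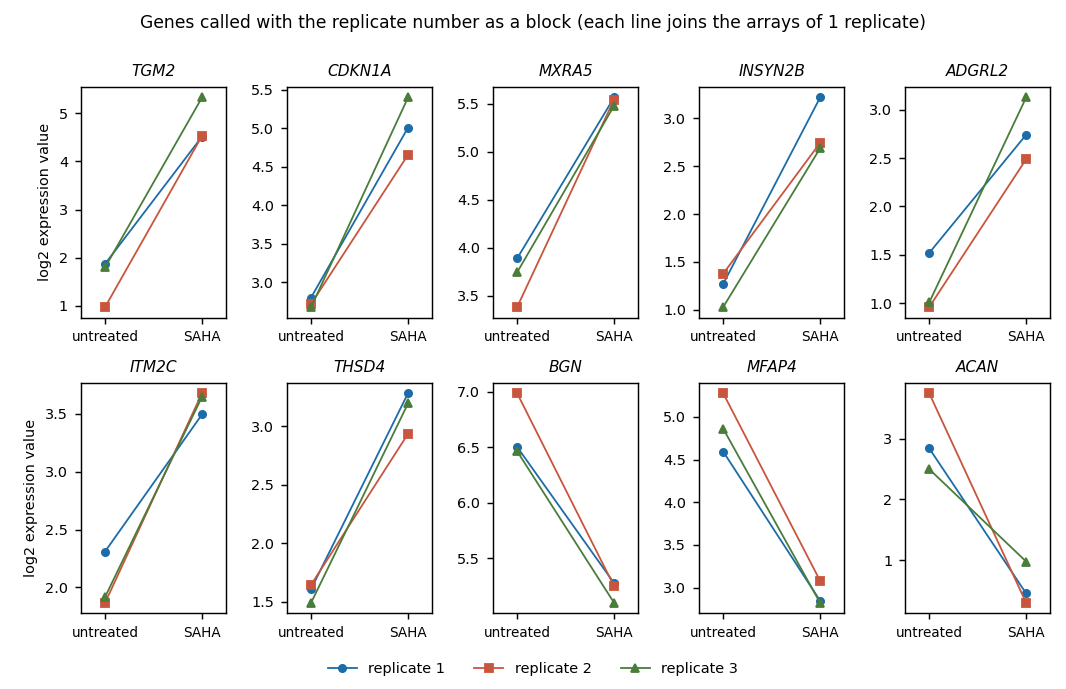
Log2 expression values (y axis, separate scale per panel) of the 10 genes called with the replicate number as a block, in untreated and SAHA arrays (x axis). Each line joins the arrays of 1 replicate number, and in every panel the 3 lines run the same way.

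A second description without a variance model counted genes that passed 1.5-fold in the same direction in each of the 3 pairs. There were 60 such genes higher with SAHA (0.324% of all genes) and 30 lower (0.162%), and in all 90 the SAHA and untreated arrays did not overlap. The equal means of the replicate numbers favour such a separation once all 3 pairs run the same way, so it adds nothing to these counts. Of the 90, 59 of the 60 and 26 of the 30 were among the genes with the highest mean level. The 80 of them that were not called had adjusted p between 0.066 and 0.36 in limma, so for these the differences are given as values. At 2-fold in each pair, 10 genes were higher and 4 were lower.

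The 60 held members of the IGF, BMP and TGF-beta, and Wnt lists. IGFBP5, a secreted binding protein of insulin-like growth factors (IGFs), had untreated values of 5.11, 4.74 and 4.48 and SAHA values of 6.11, 6.13 and 7.29. The highest of these was the SAHA array of replicate 3, whose difference of 2.80 compared with 1.01 and 1.40 in the other pairs. PAPPA, a protease that cleaves IGF-binding proteins, had more even differences of 1.09, 1.16 and 1.60. SMAD6, an inhibitory SMAD of the BMP pathway, had differences of 0.88, 1.46 and 1.36, and CHRDL1, a secreted antagonist of BMPs, had 1.43, 0.85 and 1.20. TGFBR2, the type II receptor of TGF-beta, had 0.70, 1.35 and 1.07. For the Wnt pathway, the receptor gene FZD1 had differences of 0.92, 0.73 and 0.94 and DKK3, of the dickkopf family, had 0.94, 0.99 and 1.39.

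The 60 also held genes of the elastic fibre and of small leucine-rich proteoglycans, the same classes to which MFAP4 and BGN belong. ELN, the gene of elastin, had differences of 0.96, 1.22 and 1.58, and LOXL1, an oxidase that crosslinks elastin, had 0.67, 0.82 and 0.59. LUM, which encodes lumican, had 0.87, 0.98 and 1.74, and PRELP had 0.64, 0.59 and 0.70. Their relative ASPN, the gene of asporin, had differences of -0.80, -2.81 and -0.75. Its untreated replicate 2 stood at 2.67 against 1.16 and 1.44 in the other untreated arrays. As replicate 2 had no EtOH array, this level also depends on the equal means, and does not show that this culture differed.

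Among the 30 genes lower by 1.5-fold in all 3 pairs, ENPP2 encodes autotaxin, the secreted enzyme that makes lysophosphatidic acid, and went from 4.50, 4.69 and 4.13 to 2.72, 2.91 and 3.22. HSPB6, a small heat shock protein, went from 6.92, 8.15 and 7.03 to 5.81, 5.22 and 6.01, with a difference of -2.93 in replicate 2 against -1.11 and -1.02 in the others. RFLNB, a partner of filamins, had differences of -0.95, -2.06 and -0.91, and SSPN, the gene of sarcospan, had -0.84, -1.93 and -1.05, so that replicate 2 gave the largest difference in each. SORCS2, a receptor of the sortilin family, had -0.95, -1.22 and -1.51. The complement protease gene C1S had -1.03, -0.85 and -0.76, and IFITM3, an interferon-induced antiviral membrane protein, had -1.02, -0.61 and -0.79.

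The 3 pairs were then compared across genes. The numbers of genes at least 1.5-fold higher with SAHA were 947, 737 and 1123 in replicates 1, 2 and 3, and the numbers at least 1.5-fold lower were 1608, 1161 and 927. Of the 947 genes higher in replicate 1, 215 (22.7%) were also past 1.5-fold upward in replicate 3 and 108 (11.4%) in replicate 2, beside 6.07% and 3.98% of all genes in these pairs. Of the 1608 lower in replicate 1, 146 (9.08%) passed downward in replicate 3 and 180 (11.2%) in replicate 2, beside 5.01% and 6.27% of all genes. Over all genes, the sign of the difference was shared by 51.1% of genes between replicates 1 and 2, 53.1% between 1 and 3 and 50.2% between 2 and 3. Most genes that passed the fold did so in 1 pair, with 2073 upward and 2896 downward, while 277 and 355 did so in 2 pairs.

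Pearson correlations of the paired differences across all genes were 0.09 between replicates 1 and 2, 0.17 between 1 and 3 and 0.10 between 2 and 3, and the Spearman values were 0.05, 0.12 and 0.05. The differences being compared share no array, although genes within an array are not independent of each other and no test was made. The correlations rose with the level of the genes. They were 0.14, 0.30 and 0.19 in the 6170 genes with the highest mean level, and -0.00035, 0.0003 and 0.02 in the 6169 with the lowest. The same sign in all 3 pairs was seen in 2103 genes above 0 (11.4%) and in 3024 below 0 (16.3%).

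**Figure D2:**
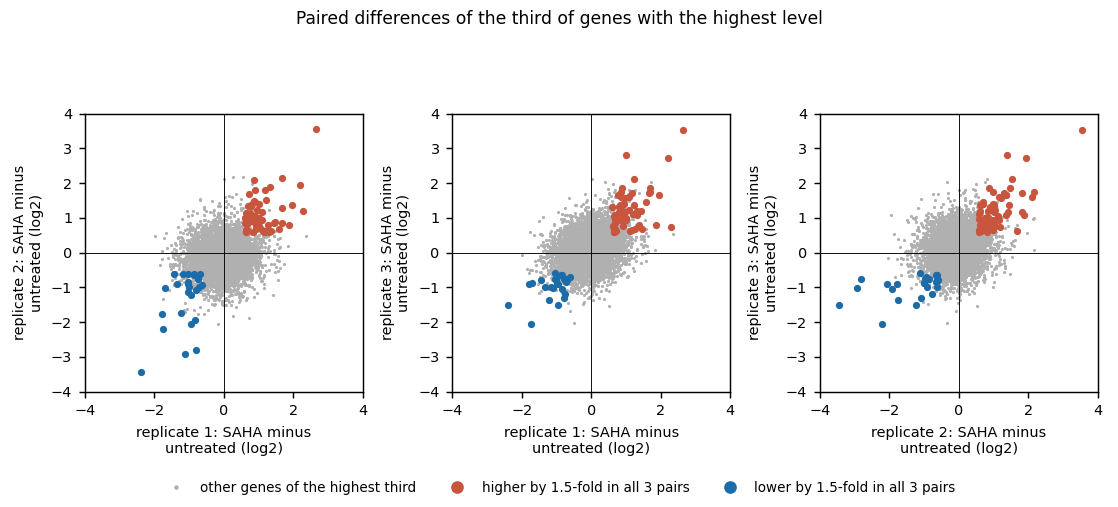
SAHA minus untreated differences (log2) of the 6170 genes with the highest mean level, plotted for each 2 of the 3 replicates, with 1 point per gene. The 59 genes higher by 1.5-fold in all 3 pairs (red) and the 26 lower (blue) lie in the corners of a cloud with weak correlation (0.14, 0.30 and 0.19 from left to right).

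Gene groups were described by their counts and by the median of each pair, beside the median over all genes of -0.05, -0.02 and -0.01 in replicates 1, 2 and 3. Of 41 lists, 8 had a median above 0 in all 3 pairs, 9 had one below 0 in all, and in 24 the sign differed between pairs. The lists were chosen from general knowledge with earlier results of these arrays known. Counts of members with the same sign in all 3 pairs stand beside 11.4% of all genes higher and 16.3% lower. Of the mitosis, p53 and ATF4 genes, 32 of 44, 19 of 29 and 21 of 26 were among those with the highest mean level. The pairs correlated more among such genes. As 10 of 18508 genes were called, a list without a called gene is no result about its members.

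Cell cycle genes made up the list with the lowest median. Of 44 genes of mitosis and the G2/M phase, 39 had a negative log2 fold change, 21 (47.7%) were lower in all 3 pairs, and 0 were higher in all 3, beside 16.3% and 11.4% of all genes. The median differences of these genes were -0.29, -0.38 and -0.47. None was called in limma, and 22 had an unadjusted p under 0.05, all of them lower. Among all 18508 genes, 876 lower and 557 higher genes had such a p. DIAPH3, a formin needed for division of the cytoplasm, passed 1.5-fold in all 3 pairs, from 2.13, 2.40 and 2.41 to 1.33, 1.32 and 1.12 (adjusted p = 0.098 in limma). CENPF, a kinetochore protein, had differences of -0.74, -0.90 and -0.53, and TOP2A, which untangles DNA before mitosis, had -0.66, -1.12 and -0.44. MKI67, the gene of the proliferation marker Ki-67, had -1.54, -0.38 and -0.91. CDC20, an activator of the anaphase-promoting complex, ranged from -0.35 to -2.04. CDK1 and CCNA2 had log2 fold changes of 0.01 and -0.07, with differences of either sign.

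Genes of DNA replication and the G1/S phase showed a different pattern. Among 44 of these, 27 were positive and 17 negative, with medians of 0.21, 0.09 and -0.03 in the 3 pairs and 0 called. TYMS, the thymidylate synthase gene, had differences of 1.02, 0.51 and 0.84, while MCM2, a subunit of the replicative helicase, had -0.20, 0.60 and -0.46. The D-type cyclins, which carry cells through G1, were all higher in each pair, with differences of 0.998, 0.75 and 0.99 for CCND1, 0.21, 0.61 and 0.35 for CCND2 and 0.65, 0.45 and 1.02 for CCND3. Beside CDKN1A, the inhibitors CDKN2C and CDKN2D were lower in all 3 pairs (log2 fold changes -0.24 and -0.62), and CDKN1C was higher by 0.31.

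CDKN1A is also a target of p53, a transcription factor that responds to DNA damage and other stress. Of 29 p53 targets measured, 13 (44.8%) were higher in all 3 pairs and 3 (10.3%) were lower, beside 11.4% and 16.3% of all genes. CDKN1A was the 1 gene called. MDM2, which marks p53 for degradation, had untreated values of 1.95, 1.54 and 1.49 and SAHA values of 2.82, 3.03 and 3.33. EDA2R, a receptor of the TNF receptor family, went from 1.58, 1.34 and 1.86 to 2.47, 3.15 and 3.04. Both passed 1.5-fold in all 3 pairs, with adjusted p of 0.082 for MDM2 and 0.088 for EDA2R in limma. BAX, which promotes apoptosis, had differences of 1.28, 0.58 and 0.78, and CCNG1 had 1.43, 0.49 and 0.75. The median over the 29 genes was 0.03, 0.12 and 0.63 in replicates 1, 2 and 3, and the median fold change of 0.21 became 0.09 without replicate 3. RRM2B, a subunit of ribonucleotide reductase, had differences of -0.56, -0.04 and 1.04, and FDXR had -0.72, -0.80 and 0.74. TP53I3 had -0.67, -0.88 and -0.15, and PPM1D, a phosphatase that acts against p53, had -0.69, -0.45 and -0.09.

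Genes under ATF4, the transcription factor of the amino acid stress response, had the second lowest median. Of 26 genes, 23 were negative and 15 (57.7%) were lower in all 3 pairs, beside 16.3% of all genes. Their medians were -0.22, -0.53 and -0.35, with 0 called in limma. CARS1, the cysteinyl-tRNA synthetase, had untreated values of 3.10, 3.06 and 2.91 and SAHA values of 2.11, 2.07 and 2.04, so that its differences of -0.99, -0.99 and -0.87 were among the most even of the genes described (adjusted p = 0.11 in limma). CTH, which makes cysteine from cystathionine, had -0.70, -0.66 and -0.61. SLC7A11, the cystine transporter, had -0.23, -0.87 and -1.48, and PHGDH, the first enzyme of serine synthesis, had -0.22, -1.03 and -1.41. ASNS, the asparagine synthetase gene, had -0.17, -1.35 and -0.67. STC2 ran the other way, with 0.64, 0.63 and 0.49.

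**Figure D3:**
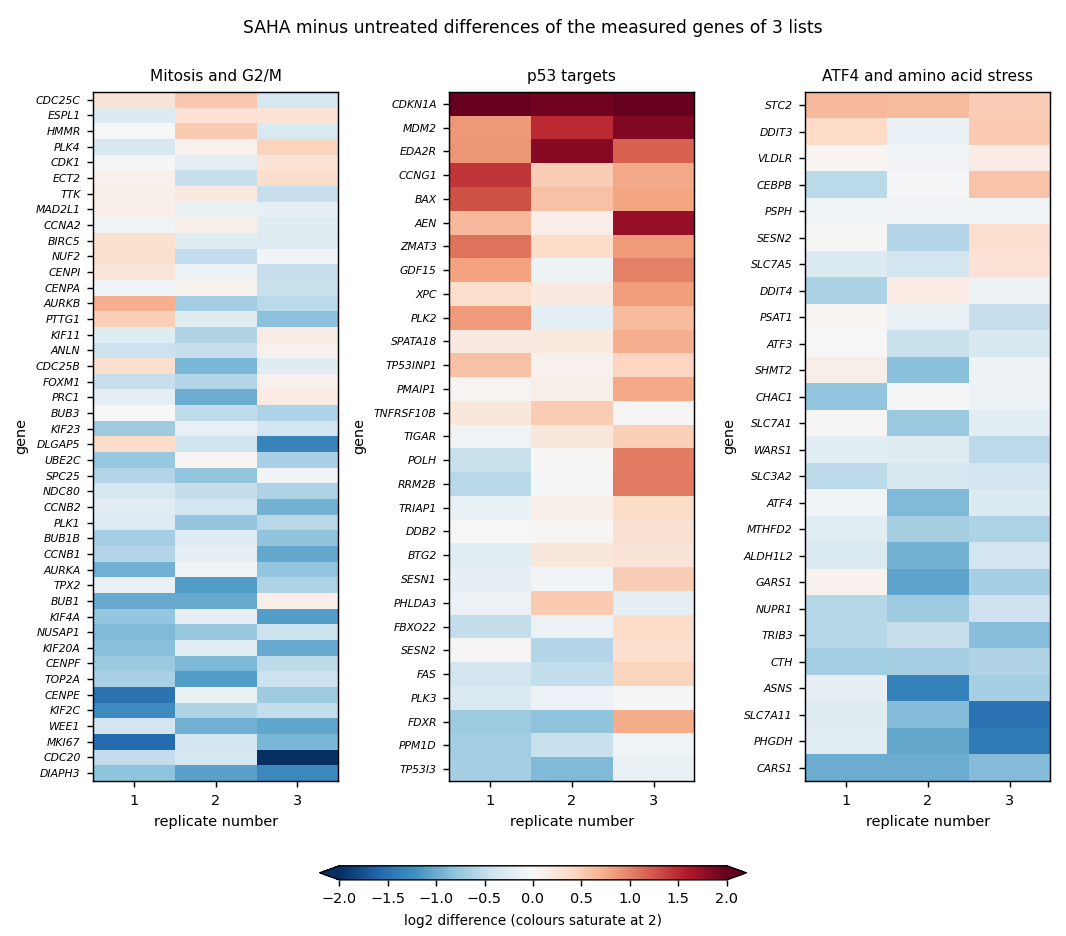
SAHA minus untreated differences (log2, colour, red higher and blue lower with SAHA) of each measured gene (rows, ordered by log2 fold change) of 3 lists in replicates 1, 2 and 3 (columns). The 44 genes of mitosis are mostly blue in all 3 columns, and the 29 p53 targets are mostly red in replicate 3, where their median was 0.63.

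Mesenchymal stem cell surface markers were among the lists with positive medians. Of 13 markers, 11 had a positive log2 fold change and 6 (46.2%) were higher in all 3 pairs, beside 11.4% of all genes. Their medians were 0.33, 0.22 and 0.41. The median fold change of 0.36 became 0.25 under quantile normalisation. Of the 13 markers, 12 were among the genes with the highest mean level, in which the pairs correlated more. CDH11, a cadherin of mesenchymal cells, had differences of 0.58, 0.79 and 0.67, and ITGB1, the integrin beta 1 gene, had 0.33, 0.22 and 0.63. PDGFRB had -0.39, -0.47 and 0.49. Of 31 genes of TGF-beta and BMP signalling, 23 were positive and 9 were higher in all 3 pairs, with medians of 0.22, 0.14 and 0.28. ID3, a transcription regulator induced by BMPs, had 1.14, 0.49 and 1.68, and SMAD2, which carries the TGF-beta signal, had -0.90, -0.18 and -0.57. Of 19 genes of the IGF axis, 7 (36.8%) were higher and 4 (21.1%) were lower in all 3 pairs, and IGFBP6 had -0.67, -1.12 and -0.37. Of 7 genes of the aryl hydrocarbon receptor pathway, 4 had a positive and 3 a negative log2 fold change. In all 3 pairs, 4 were higher and 1 was lower. The receptor AHR (0.62, 0.86 and 0.78), TIPARP (0.68, 0.64 and 0.69) and NQO1 (0.64, 0.59 and 0.59) passed 1.5-fold upward in all 3 pairs. Of all genes, 0.324% did so. No gene of these 4 lists was called. Of the TGF-beta and BMP, IGF and aryl hydrocarbon receptor genes, 23 of 31, 10 of 19 and 6 of 7 were also among those with the highest mean level.

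The matrix proteoglycan list had a median near that of all genes, at -0.05, -0.04 and -0.01, while its members ran in both directions. Of 30 genes, 6 were higher and 11 lower in all 3 pairs, and ACAN and BGN were called lower. VCAN, the gene of versican, had differences of 0.25, 0.01 and 0.23, and DCN, the gene of decorin, had 0.25, -0.52 and 0.03. SRGN, the gene of serglycin, had -0.82, -0.91 and -0.34, and SPOCK1 had 0.51, 0.75 and 0.50. Among 21 genes of the elastic fibre and microfibrils, MFAP4 was called lower, 4 were higher and 2 lower in all 3 pairs. FBLN1, the gene of fibulin 1, had 0.90, 0.75 and 0.40, but LTBP2, of the latent TGF-beta binding proteins, had 1.04, -0.60 and 1.68.

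Several groups changed sign between pairs. The 21 fibrillar and basement membrane collagens had medians of -0.10, -0.42 and 0.17, and COL1A1, the main chain of collagen I, had differences of -0.02, -0.98 and 0.51. COL4A1 of the basement membrane was lower in each pair, at -0.45, -1.37 and -1.02, as was COL6A3, at -0.47, -0.56 and -0.76. The 21 contractile genes of myofibroblasts had medians of -0.21, -0.31 and 0.10. ACTA2, the gene of smooth muscle actin, had untreated values of 3.49, 4.03 and 3.27 and SAHA values of 2.63, 2.37 and 3.11, while MYL9, a myosin light chain, had differences of -0.0033, -0.91 and 0.33. The 17 targets of YAP and TEAD had medians of 0.30, -0.28 and 0.19, and CCN2, a secreted matricellular protein, had differences of 1.73, -0.33 and 2.03. The 22 histone genes had medians of 0.40, -0.36 and 0.02, with differences of 1.46, -0.54 and 0.42 for H4C3 and 1.57, -0.77 and -0.23 for the linker histone H1-5. Histone genes of a family are near-identical in sequence, and how far their probes tell them apart was not tested. The 33 ribosomal protein genes had medians of 0.34, -0.07 and 0.04. No gene of these 5 lists was called. Leaving out replicate 2 moved the median of the collagens from -0.02 to 0.17 and that of the YAP and TEAD targets from 0.09 to 0.30.

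**Figure D4:**
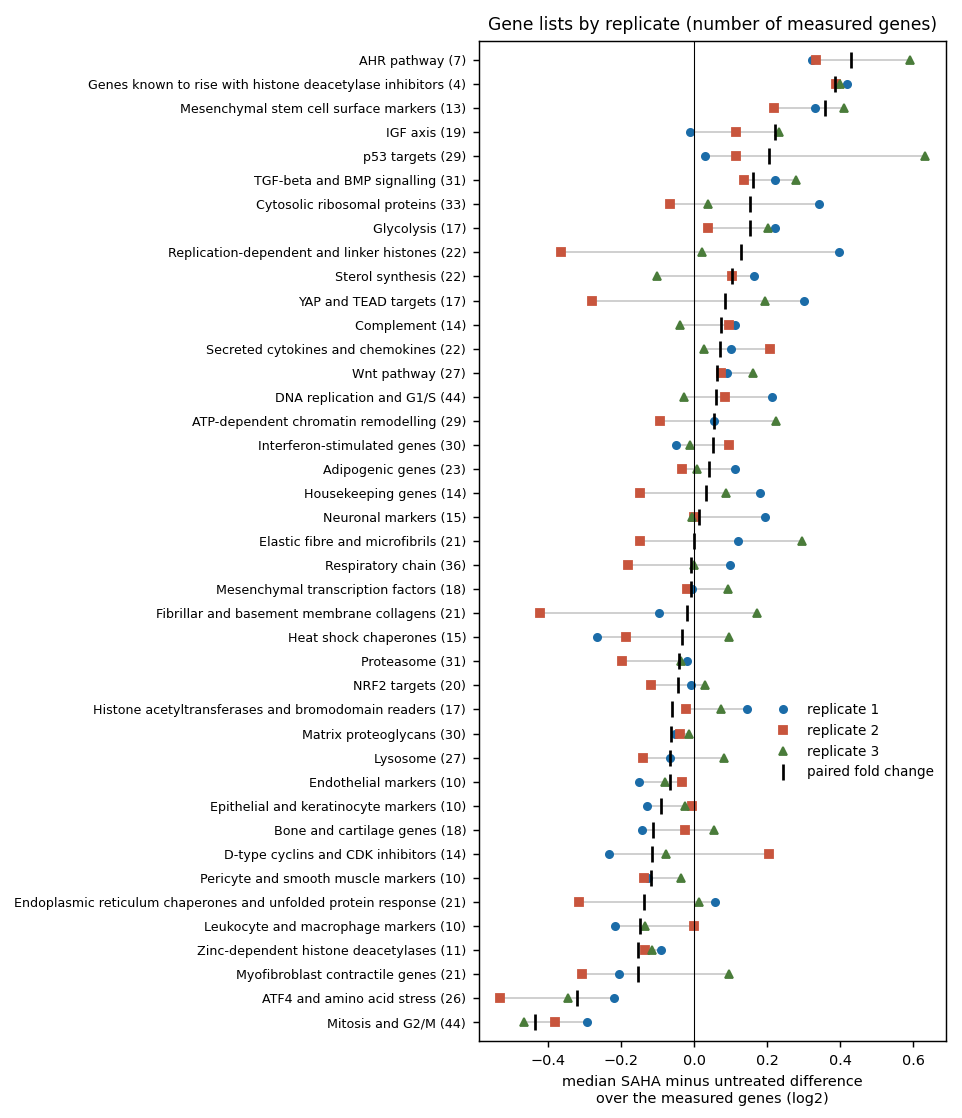
Median SAHA minus untreated difference (log2, x axis) over the measured genes of each of 41 lists (y axis, number of genes in brackets) in replicates 1, 2 and 3 (coloured points), with the median of the paired log2 fold changes (black bar). Mitosis and ATF4 genes lie below 0 in all 3 replicates, while histones and collagens spread to both sides.

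The widest disagreement between pairs was seen in 322 genes that were at least 1.5-fold higher in 1 pair and at least 1.5-fold lower in another. Of these, 113 were higher in replicate 3 and lower in replicate 2, and 31 the other way round. The 10 genes with the widest range, COMP, H2BC14, HSPB7, CREB5, TNXB, FLNA, SNRPB2, CCNL2, MMUT and ANKRD13A, all had a negative difference in replicate 2 and a positive one in replicate 3. COMP, a cartilage matrix protein, had untreated values of 3.33, 4.12 and 2.56 and SAHA values of 2.57, 2.17 and 3.64. FLNA, the gene of filamin A, which crosslinks actin, had differences of 0.22, -1.50 and 0.94, and HSPB7, a small heat shock protein, had 0.26, -1.08 and 1.54. CREB5, a transcription factor, had 0.73, -1.87 and 0.55, and TNXB, the gene of tenascin X, had 0.94, -1.17 and 1.28. Their adjusted p in limma were 0.85 for COMP, 0.98 for FLNA, 0.94 for HSPB7, 0.96 for CREB5 and 0.90 for TNXB. These genes were chosen by their range, which is therefore no result of its own.

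**Figure D5:**
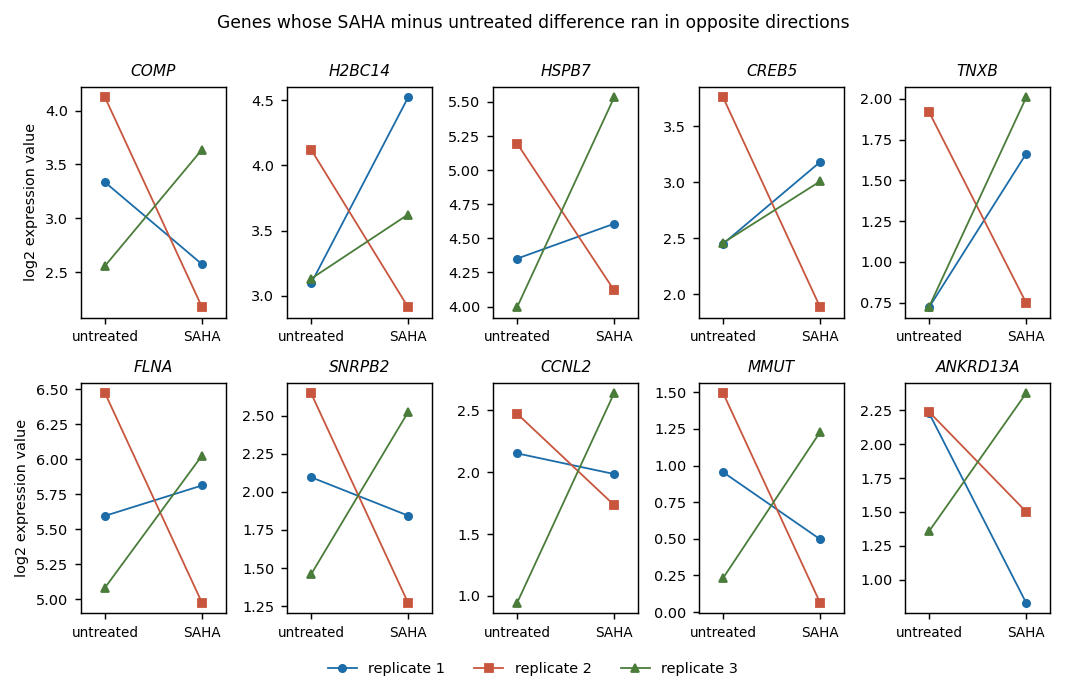
Log2 expression values (y axis, separate scale per panel) of the 10 genes with the widest range between pairs in opposite directions, in untreated and SAHA arrays (x axis). Each line joins the arrays of 1 replicate number, and the line of replicate 2 falls while that of replicate 3 rises in every panel.

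The genes of all 11 zinc-dependent HDACs were measured, and none was called, beside 10 of all 18508 genes. Their medians were -0.09, -0.13 and -0.11 in the 3 pairs, 9 of 11 had a negative log2 fold change and 4 were lower in all 3 pairs. Among the nuclear class I enzymes, HDAC1 had differences of -0.45, 0.09 and 0.38, HDAC2 had -0.32, -0.48 and -0.11, and HDAC3 had 0.08, -0.38 and 0.22. HDAC5, a class II enzyme, had -0.35, -0.90 and -0.31 (adjusted p = 0.53 in limma), and HDAC9 had -0.0038, -0.75 and -0.42. HDAC6, which acts on tubulin in the cytoplasm, had 0.44, -0.07 and 0.11. HDAC4 had the widest range between pairs of the 11 genes, with 0.04, 0.03 and -1.36, and HDAC10 had -0.16, 0.54 and -0.60. The differences were -0.0003, -0.71 and -0.14 for HDAC7, -0.38, -0.13 and 0.06 for HDAC8, and -0.09, 0.09 and -0.04 for HDAC11.

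Among genes known to rise with HDAC inhibitors in other cells, CDKN1A was called. TXNIP, which binds thioredoxin, had differences of 0.40, 0.96 and 0.68 (adjusted p = 0.36 in limma), and was higher in all 3 pairs. GSN, the gene of the actin-severing protein gelsolin, had 0.44, -0.27 and 0.12.

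With 3 pairs, an exact test that flips the signs of the paired differences cannot give a two-sided p below 0.25, so the calls rest on the variance that limma shares across genes. The p-values rest on the spread of 3 paired differences between cultures of 1 line, moderated by that shared variance. Without replicate 2, 72 genes were called higher and 28 lower, and without the block 63 and 39.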

How the data were processed

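RNA of ASC52telo cells was hybridised to Clariom S human arrays. The study's methods name RMA normalisation with the oligo package. The deposited table held 1 log2 value per gene and array for 18508 genes, with values down to -0.83. Which steps after RMA gave these values is not stated. The genome build was not given in the sources used here. Equal means of the replicate numbers, within 1e-10 in all genes, show a centring that the methods do not name. It also fixes part of the correlation between arrays of the same number, so the pairing was not checked from the data and follows the biological replicate numbers of the labels.

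Neither normalisation nor a filter was added. With limma 3.58.1 (R 4.3.3), a linear model with treatment and the replicate number as a block was fitted to 6 arrays and tested on simulated data. P-values were Benjamini-Hochberg adjusted across the whole table. Genes were called at an adjusted p under 0.05 and 1.5-fold. The number of arrays limits the precision.

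The comparison, the rules and the 41 gene lists were chosen with earlier results of these data known, and some lists hold genes named by the study. Genes were named by size of change (15 rises and 15 falls), by list (called members or the 2 smallest p), by opposite pairs (10 genes), by closeness to the p threshold and as HDAC genes or genes known to rise with their inhibitors. Other genes in the text were picked from the lists after their values were seen. RefSeq lists 18131 of the gene names as current symbols and 341 as synonyms, and 36 as neither. The alternatives were the unpaired fit, variance priors with an intensity trend or robust, quantile normalisation, median centring, leaving out the 6169 genes with the lowest mean level, t-tests, the fold threshold inside the test and each replicate left out. Medians of the lists under other scalings or without a replicate were added after seeing the data. The EtOH arrays, the raw array files and the other assays of the study were not analysed here. The result of 1 gene that the rule names is not reported here.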

Additional observations from a re-analysis of the deposited data

How the results depend on the processing

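The 7 genes called higher and 3 called lower with the replicate block became 63 and 39 without the block, and these included all 10 and 72 of the 90 genes past 1.5-fold in all 3 pairs. Since the deposited values were centred by replicate number, the unpaired fit no longer holds the full spread between numbers, while its residual degrees of freedom still count it. An intensity trend in the variance gave 21 higher and 7 lower, leaving out the 6169 genes with the lowest mean level 27 and 11 of 12339, quantile normalisation 11 and 4, and the fold threshold inside the test 2 and 1. Centring each array on its median gave 7 and 2, and the robust prior 7 and 3. The methods' t-test, which the study names under its general statistics while limma is its array test, and the paired t-test without moderation called 0 genes in either direction, with 2416 and 1004 genes at an unadjusted p under 0.05 against 1433 in limma. Leaving out 1 replicate gave 7 to 72 higher and 1 to 28 lower genes, with 7 and 1 without replicate 1, 72 and 28 without replicate 2, and 10 and 13 without replicate 3. At 2-fold in each pair, 10 and 4 genes remained of the 60 and 30. Of the 41 list medians, 8 changed sign without replicate 1, 6 without replicate 2, 3 without replicate 3, and 4 under quantile normalisation or median centring. The correlations between pairs moved little under quantile normalisation and the filter on low values. These 6169 genes lay below the array medians, and the correlations between pairs were near 0 among them.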

Other observations

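Genes of metabolism and of the proteasome were also measured. Of 17 glycolysis genes, 7 were higher in all 3 pairs, with medians of 0.22, 0.04 and 0.20, and GPI had differences of 0.60, 0.73 and 0.20 while ENO1 had -0.77, -0.47 and -0.11. Of 22 sterol synthesis genes, 3 were higher and 4 lower in all 3 pairs. MSMO1, an enzyme of the late steps of cholesterol synthesis, had differences of 1.30, 1.24 and 0.12. Of 31 proteasome genes, 9 were lower in all 3 pairs, with -0.51, -0.65 and -1.11 for PSMA5 and 0.56, 0.61 and 0.64 for PSMD2. None of these genes was called in limma.

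Among immune genes, TNFAIP3, a brake on NF-kappaB signalling, had differences of 0.28, 2.17 and 0.98, and CXCL12, a chemokine of stromal cells, had 0.65, 0.47 and 0.64. The list of 22 cytokine and chemokine genes also held TNFAIP3, which is neither. Of the 22, 7 were higher in all 3 pairs, TNFAIP3 included, and 1 was lower, with 0 called in limma. An unadjusted p under 0.05 in limma was found for 4 of the 22, all higher and TNFAIP3 among them. Such a p was found for 557 higher and 876 lower of all 18508 genes.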
